A study of Homo sapiens with 6 samples.

Results

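The 10 genes described here encode the core of the NF-kB pathway and were taken by symbol: the subunits RELA, RELB, NFKB1 and NFKB2, the inhibitors NFKBIA, NFKBIB, NFKBIE and TNFAIP3, and the kinases IKBKB and CHUK. All 10 were among the 20330 Ensembl genes listed in each table, and all 10 passed the filter on low values. RNA sequencing was done on U251, an established human glioblastoma cell line. The groups were cells with stable overexpression of the long noncoding RNA XLOC013218 (3 libraries) and control cells (3 libraries). The sources used here do not give what the control cells carry, or whether the overexpressing cells are a clone or a pool. The labels describe poly(A)-selected libraries, whereas the series' design text describes cytoplasmic RNA without that selection. The replicates are called independent biological ones, with no word on separate cultures or clones, so p-values measure the spread between these libraries, which may be technical.

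NF-kB is a family of dimeric transcription factors that wait in the cytoplasm, bound by IkB proteins. When the IKK kinases phosphorylate an IkB, it is degraded and the dimer enters the nucleus, where it induces cytokines, survival genes and its own inhibitors. In glioblastoma the pathway is known for inflammatory signalling and for its link to the mesenchymal state.

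The members were taken by symbol and not by promoter sequence. Known NF-kB targets are among them, however, so kB-like words in their windows are no independent finding. RefSeq promoter windows of GRCh38.p14, reaching from 250 bases before a start to 50 bases after it, matched 7 of the 10 members. RELB, NFKBIE and IKBKB had no window. A kB-like word (GGG, any 2 bases, then TTTCC) was searched on both strands, as was an interferon-response word (GAAA, any 2 bases, then GAAA). Read on opposite strands, these words can share the letters GAAA. The kB-like word occurred in the windows of 5 of these 7 genes, against 2.33% of 27305 genes and 1.91% of 35116 windows in the whole table. RELA and CHUK held no match. The 120 bases before each start with a match are shown because NFKB1, NFKB2, NFKBIA and TNFAIP3 are themselves known NF-kB targets. They are written 5′ to 3′ on the gene's strand, with the matched word in capitals on either strand.

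TNFAIP3 (chr6:137867139-137867258, plus strand): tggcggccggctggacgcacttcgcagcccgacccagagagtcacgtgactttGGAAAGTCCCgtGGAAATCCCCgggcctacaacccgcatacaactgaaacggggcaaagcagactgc
NFKBIA (chr14:35404750-35404869, minus strand): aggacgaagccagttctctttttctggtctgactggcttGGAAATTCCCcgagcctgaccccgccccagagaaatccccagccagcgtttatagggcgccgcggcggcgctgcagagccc
NFKB1 (chr4:102501239-102501358, plus strand): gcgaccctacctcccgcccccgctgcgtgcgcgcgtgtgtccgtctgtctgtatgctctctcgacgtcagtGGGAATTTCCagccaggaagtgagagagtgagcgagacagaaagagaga
NFKB2, upstream start (chr10:102394458-102394577, plus strand): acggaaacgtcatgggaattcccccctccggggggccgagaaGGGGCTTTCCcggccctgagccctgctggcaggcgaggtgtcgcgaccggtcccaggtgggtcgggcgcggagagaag
NFKB2, downstream start (chr10:102395585-102395704, plus strand): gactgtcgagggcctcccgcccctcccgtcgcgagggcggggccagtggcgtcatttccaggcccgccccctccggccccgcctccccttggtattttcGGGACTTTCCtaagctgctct
NFKBIB (chr19:38899849-38899968, plus strand): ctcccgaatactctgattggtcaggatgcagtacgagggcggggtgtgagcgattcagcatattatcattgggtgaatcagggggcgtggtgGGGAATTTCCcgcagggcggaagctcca

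TNFAIP3 held 2 matches in this stretch and each of the other starts shown held 1. The interferon-response word occurred in 1 of the 7 members, at a RELA start, against 4.38% of all genes and 9 of 11 interferon-stimulated genes with a window. A match is a run of letters in the reference sequence and says nothing of binding in these cells. Looser forms of the kB-like word were not searched, so a window without a match may still hold an NF-kB site.

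Estimated differences in the NF-kB core between overexpressing and control cells were small for all members but TNFAIP3. The log2 fold change of TNFAIP3 was 0.32, and those of the others lay between -0.09 and 0.05. The limma 95% intervals of the others reached from -0.26 (RELB) to 0.32 (NFKBIE), so larger differences are not excluded. None of the 10 members passed the test, 0 higher and 0 lower, in limma at an adjusted p under 0.05 over 11731 tested genes, and 1 of the 10, TNFAIP3, had an unadjusted p under 0.05. Over all tested genes 0.52% passed, 0.315% higher and 0.205% lower, and 12.7% had an unadjusted p under 0.05, so 1 of 10 is no more than that background. The members' median log2 fold change was 0.04, beside -0.0008 over all tested genes, and their median absolute log2 fold change was 0.05, beside 0.08. Fold changes are overexpression minus control of log2(FPKM + 1), so those of low genes are understated. FPKM is the fragment count scaled by transcript length and by the library's mapped fragments. In such bulk RNA, fewer cells with a transcript and less of it per cell cannot be told apart.

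**Figure D1:**
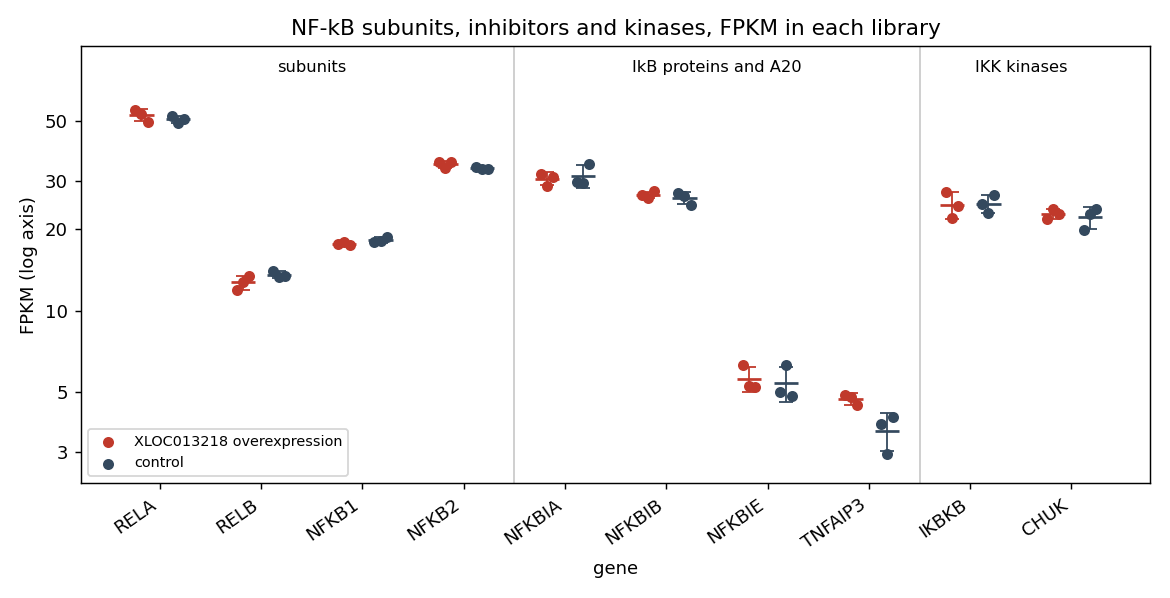
FPKM on a log axis for the 10 NF-kB genes, with 1 point per library, a line at the mean and bars of 1 SD (n = 3 per group), XLOC013218 overexpression in red and control in dark blue. TNFAIP3 lies between 4.46 and 4.89 FPKM in overexpressing cells, above all 3 control libraries, while the groups of most other members overlap.

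RELA (ENSG00000173039, chromosome 11) encodes p65, the subunit that carries the main activation domain of the classical pathway. It had 55.1, 53.4 and 49.8 FPKM in overexpressing cells, against 52.4, 49.3 and 51.0 FPKM in control cells. The groups overlapped, and the highest and the lowest value of the 6 differed by less than 6 FPKM. Its log2 fold change was 0.05 (SE 0.06, limma 95% interval -0.07 to 0.18, limma adjusted p = 0.766).

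RELB (ENSG00000104856, chromosome 19), the partner of p52 in the non-canonical pathway, had 11.9, 12.8 and 13.4 FPKM in overexpressing cells, against 14.1, 13.3 and 13.4 FPKM in control cells. Overexpression replicate 1 was the lowest library and control replicate 1 the highest, and the groups met between 13.3 and 13.4 FPKM. The log2 fold change of -0.09 (SE 0.07, limma 95% interval -0.26 to 0.08, limma adjusted p = 0.672) was the lowest of the 10.

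NFKB1 (ENSG00000109320, chromosome 4) encodes p105, the precursor of p50. It had 17.6, 17.9 and 17.4 FPKM in overexpressing cells, against 17.9, 18.1 and 18.7 FPKM in control cells. Every overexpression value lay below every control value, but the gap between the nearest libraries was that between 17.87 and 17.88 FPKM. Its log2 fold change was -0.05 (SE 0.06, limma 95% interval -0.18 to 0.09, limma adjusted p = 0.813).

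NFKB2 (ENSG00000077150, chromosome 10) encodes p100, the precursor of p52 and itself an inhibitor of RELB. It had 35.4, 33.6 and 35.3 FPKM in overexpressing cells, against 34.0, 33.4 and 33.5 FPKM in control cells. Overexpression replicates 1 and 3 lay above the control range and replicate 2 within it. The log2 fold change was 0.05 with the narrowest interval of the family (SE 0.05, limma 95% interval -0.07 to 0.16, limma adjusted p = 0.776).

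The IkB proteins, which hold dimers in the cytoplasm, showed no shared direction. NFKBIA (ENSG00000100906, chromosome 14) encodes IkB-alpha, the inhibitor that NF-kB resynthesises fastest and a common readout of its activity. It had 32.0, 28.9 and 31.3 FPKM in overexpressing cells, against 29.8, 29.6 and 34.9 FPKM in control cells. Control replicate 3 was the highest library, and the other 5 lay between 28.9 and 32.0 FPKM with the groups mixed. The log2 fold change was -0.03 (SE 0.08, limma adjusted p = 0.909), and the limma 95% interval of -0.20 to 0.14 spans changes from -13.1% to 10.3% on the FPKM + 1 scale. Its sign is not settled, since the value was 0.0440 without control replicate 3, 0.0128 without overexpression replicate 2 and 0.0154 with array quality weights.

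NFKBIB (ENSG00000104825, chromosome 19), IkB-beta, is a slower inhibitor. It had 26.7, 26.1 and 27.5 FPKM in overexpressing cells, against 27.3, 26.5 and 24.6 FPKM in control cells, with overlapping groups (log2 fold change 0.04, SE 0.06, limma adjusted p = 0.852). Exons of NFKBIB share 40 bases with SIRT2 on the opposite strand in GENCODE 29, and the sources used here do not say whether counting used the strand.

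NFKBIE (ENSG00000146232, chromosome 6), IkB-epsilon, was low, at 6.28, 5.28 and 5.20 FPKM in overexpressing cells, against 5.01, 6.29 and 4.84 FPKM in control cells. A single library stood higher than the rest in each group, overexpression replicate 1 and control replicate 2. The limma 95% interval of its log2 fold change of 0.05 was the widest of the family, from -0.22 to 0.32 (SE 0.12, limma adjusted p = 0.905).

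TNFAIP3 (ENSG00000118503, chromosome 6) encodes A20, a ubiquitin-editing enzyme that shuts down signalling upstream of IKK and is itself induced by NF-kB. It had 4.89, 4.81 and 4.46 FPKM in overexpressing cells, against 3.81, 2.94 and 4.03 FPKM in control cells. All 3 overexpression libraries lay above all 3 control libraries, with control replicate 2 the lowest. The mean was 4.72 ± 0.229 FPKM in overexpressing cells and 3.59 ± 0.576 FPKM in control cells (SD, n = 3 each). Its log2 fold change of 0.32 (SE 0.12) was the largest of the 10 members and lay at the 95.8th percentile of tested genes by absolute size. The limma 95% interval ran from 0.06 to 0.59, and the gene did not pass over all genes (limma unadjusted p = 0.0226, adjusted p = 0.298). Without control replicate 2 the log2 fold change was 0.22, with a limma adjusted p of 0.643. Exons of TNFAIP3 share 95 bases with AL357060.1 on the opposite strand in GENCODE 29, and those of RELA share 9 bases with AP001362.2 on the opposite strand, so reads from these stretches could be mixed if counting ignored the strand. With 3 libraries in each group the smallest p of an exact permutation test is 0.1, so single genes rest on limma.

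**Figure D2:**
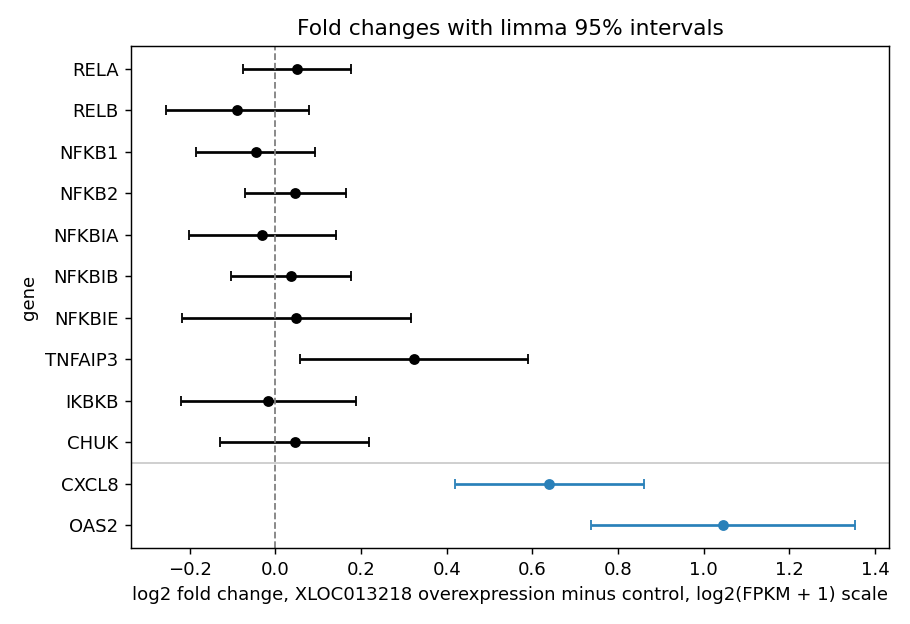
Log2 fold change, overexpression minus control on the log2(FPKM + 1) scale, with limma 95% intervals, for the 10 NF-kB members (black) and for CXCL8 and OAS2 (blue). The intervals of 9 members include 0, that of TNFAIP3 runs from 0.06 to 0.59, and CXCL8 and OAS2 lie at 0.64 and 1.05.

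The catalytic kinases of the IKK complex did not differ beyond the spread either. IKBKB (ENSG00000104365, chromosome 8), the kinase of the classical pathway, had 27.5, 21.9 and 24.3 FPKM in overexpressing cells, against 24.8, 22.9 and 26.7 FPKM in control cells. The highest and the lowest library were both overexpression libraries. The log2 fold change was -0.02 (SE 0.09, limma 95% interval -0.22 to 0.19, limma adjusted p = 0.961).

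CHUK (ENSG00000213341, chromosome 10), the kinase that drives processing of p100, had 21.9, 23.8 and 22.7 FPKM in overexpressing cells, against 19.8, 22.8 and 23.7 FPKM in control cells. Control replicate 1 was the lowest library, and the other control libraries lay within the overexpression range. The log2 fold change was 0.05 (SE 0.08, limma 95% interval -0.13 to 0.22, limma adjusted p = 0.855). Exons of CHUK share 37 bases with ERLIN1 on the same strand and 77 bases with AL138921.2 on the opposite strand in GENCODE 29, so a small part of its reads could be split.

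Groups that do not overlap were found for 2 of the 10 members, NFKB1 lower and TNFAIP3 higher. Over all tested genes the groups did not overlap for 18.9%, with 8.81% higher and 10.1% lower, so the members' share is near that background.

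Since FPKM is scaled by length, the levels can be set side by side. RELA was the most abundant member, with a mean of 51.8 FPKM over the 6 libraries, at the 80.4th percentile of tested genes, and lay above NFKB2 in all 6 libraries. NFKB2 followed at 34.2 FPKM and NFKBIA at 31.1 FPKM, and the ranges of this pair overlapped. NFKBIB (26.4 FPKM), IKBKB (24.7 FPKM) and CHUK (22.4 FPKM) came next, and each overlapped its neighbour among these. NFKB1, at 17.9 FPKM, lay below CHUK and above RELB, at 13.1 FPKM, in all 6 libraries and without overlap of ranges. NFKBIE and TNFAIP3 were the least abundant, at 5.48 and 4.16 FPKM, and their ranges overlapped although NFKBIE was higher in all 6 libraries.

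Ratios between members were computed in each library and were not tested. The precursor of p50 stood to RELA as 0.319, 0.334 and 0.349 in overexpressing cells, against 0.341, 0.367 and 0.367 in control cells, with overlap. NFKB2 over RELB was 2.97, 2.62 and 2.63 in overexpressing cells, against 2.418, 2.518 and 2.496 in control cells, and here every overexpression value was higher. The nearest libraries had 2.62 and 2.518, the groups of each gene alone overlapped, and neither gene passed. How often ratios of other gene pairs separate the groups was not computed. CHUK over IKBKB ranged from 0.794 to 1.08 in overexpressing cells and from 0.8004 to 0.992 in control cells.

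The summed IkB transcripts (NFKBIA, NFKBIB and NFKBIE) over the summed subunit transcripts (NFKB1, NFKB2, RELA and RELB) came to 0.535 ± 0.0206 in overexpressing cells and 0.541 ± 0.0144 in control cells (SD, n = 3 each). The groups of this ratio overlapped, and their means lay closer than 1 SD of either group. TNFAIP3 over NFKBIA was 0.153, 0.167 and 0.143 in overexpressing cells, against 0.128, 0.0992 and 0.116 in control cells. The groups of this ratio did not overlap, as for TNFAIP3 itself.

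Likeness of pattern was measured by Pearson's correlation of log2(FPKM + 1) over the 6 libraries, as a description. The genes named have the highest r of all tested genes with a symbol. Such a search over 6 libraries finds high r by selection, so these values are no sign of shared regulation. The genes most like NFKBIA were TEP1 (r = 0.998), ZNF493 (r = 0.988) and KCNJ5-AS1 (r = 0.987), all of which, like NFKBIA, were highest in control replicate 3 and lowest in overexpression replicate 2. The genes most like RELA were CNIH3 (r = 0.988), ARIH2 (r = 0.983) and SNRPF (r = 0.9749), which were highest in overexpression replicate 1 and lowest in control replicate 2. No other member was among these genes. Only the 3 most correlated genes were kept for each, so this does not show whether members vary together.

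No gene acting upstream of the core or beside it passed the same test. Of 55 genes in a list of receptors, adaptors, ubiquitin enzymes and co-regulators, 52 were listed in the tables and 44 were tested. In limma 0 rose, 0 fell and 44 did not pass, 2 had an unadjusted p under 0.05 (4.55%, beside 12.7% of all tested genes), and the median log2 fold change was 0.02. The groups did not overlap for 3 genes higher and 3 lower, or 13.6% of the 44, beside 18.9% of all tested genes. Among the 8 listed genes under the filter were the receptors TNFRSF1B, CD40, IL1R1 and TLR2, and CD40 was listed at 0 in all 6 libraries. IKBKG, IKBKE and MAP3K14 were not analysed here.

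PDLIM2, a ubiquitin ligase that targets nuclear RELA, had the lowest p of the list. It had 57.0, 61.1 and 58.8 FPKM in overexpressing cells, against 73.4, 69.4 and 67.6 FPKM in control cells. All overexpression values were lower, but the gene did not pass (log2 fold change -0.25, SE 0.05, limma adjusted p = 0.0937). RBCK1, the HOIL-1 subunit of the linear ubiquitin ligase, averaged 64.3 ± 4.91 FPKM in overexpressing cells and 56.5 ± 3.05 FPKM in control cells (SD, n = 3 each, limma adjusted p = 0.303).

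TLR3, the endosomal receptor for double-stranded RNA, had 4.47, 4.88 and 6.79 FPKM in overexpressing cells, against 4.07, 4.21 and 4.05 FPKM in control cells (limma adjusted p = 0.394). TRAF5, an adaptor of TNF receptors, averaged 3.60 ± 0.0651 FPKM in overexpressing cells and 4.43 ± 0.638 FPKM in control cells (SD, n = 3 each, limma adjusted p = 0.433). BCL3, a nuclear IkB protein that binds p50 and p52, averaged 20.5 ± 1.77 FPKM in overexpressing cells and 22.6 ± 0.745 FPKM in control cells (SD, n = 3 each, limma adjusted p = 0.496). TRAF5 and BCL3 were lower and TLR3 was higher in all 3 overexpression libraries than in any control library, and none of them passed.

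The most abundant genes of the list were SQSTM1, TNFRSF12A and IRAK1. SQSTM1, the scaffold p62, averaged 775 ± 52.2 FPKM in overexpressing cells and 741 ± 66.3 FPKM in control cells (SD, n = 3 each). TNFRSF12A, the receptor for TWEAK, averaged 406 ± 27.6 FPKM in overexpressing cells and 382 ± 7.55 FPKM in control cells (SD, n = 3 each). IRAK1, a kinase of Toll-like and IL-1 receptor signalling, averaged 260 ± 10.2 FPKM in overexpressing cells and 244 ± 11.3 FPKM in control cells (SD, n = 3 each). None passed, with limma adjusted p = 0.774, 0.577 and 0.522 in this order. TNFRSF1A, the main receptor for TNF and named after its values were seen, averaged 72.1 ± 0.911 FPKM in overexpressing cells and 72.3 ± 2.37 FPKM in control cells (SD, n = 3 each, limma adjusted p = 0.989).

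Among NF-kB target genes a single chemokine rose. Of 46 target genes in the list, 44 were listed and 27 tested, of which CXCL8 rose, 0 fell and 26 did not pass in limma, with 8 at an unadjusted p under 0.05 (29.6%, beside 12.7% of all tested genes). The median log2 fold change was 0.09, beside 0.04 for the members. Of the 8 at an unadjusted p under 0.05, CSF1 and EFNA1 were lower in overexpressing cells and the others were higher. All 3 overexpression values were higher than control for 6 of the 27 (22.2%) and lower for 2 (7.41%), where all tested genes gave 8.81% and 10.1%. The target list was chosen with earlier results of these data known, so these shares are no independent result and were not tested as a set.

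CXCL8, the neutrophil chemokine IL-8, had 14.8, 18.5 and 14.9 FPKM in overexpressing cells, against 10.4, 9.32 and 10.01 FPKM in control cells. The groups lay apart, with overexpression replicate 2 the highest. Its log2 fold change was 0.64 (SE 0.10, limma 95% interval 0.42 to 0.86, limma adjusted p = 0.0328). The call was lost without any 1 of control replicates 1, 2 and 3 and of overexpression replicates 1 and 3, with limma adjusted p from 0.0654 to 0.136 and log2 fold changes from 0.60 to 0.69. The ratio of CXCL8 to NFKBIA was 0.461, 0.641 and 0.477 in overexpressing cells, against 0.349, 0.314 and 0.287 in control cells. Its own promoter window held no match to the kB-like word searched, which does not show that an NF-kB site is absent.

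IER3, an early stress gene, had 26.1, 21.8 and 23.7 FPKM in overexpressing cells, against 17.9, 17.7 and 18.0 FPKM in control cells. Control libraries lay within less than 1 FPKM of each other, all below the overexpression libraries, and the gene missed the threshold (log2 fold change 0.40, SE 0.07, limma adjusted p = 0.0606). CSF1, the macrophage growth factor, had 92.1, 77.9 and 97.3 FPKM in overexpressing cells, against 110, 118 and 118 FPKM in control cells, and did not pass either (log2 fold change -0.37, SE 0.08, limma adjusted p = 0.0879). IER3 was higher and CSF1 lower in every overexpression library than in any control library.

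KLF6, a zinc-finger transcription factor, averaged 22.8 ± 1.54 FPKM in overexpressing cells and 18.7 ± 0.702 FPKM in control cells (SD, n = 3 each, limma adjusted p = 0.145). CEBPB, a transcription factor that acts with NF-kB on cytokine genes, averaged 62.0 ± 5.44 FPKM in overexpressing cells and 53.5 ± 3.72 FPKM in control cells (SD, n = 3 each, limma adjusted p = 0.298). The overexpression values of both were all higher than their control values.

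Abundant targets such as CCL2 and BCL2L1 did not pass. CCL2, the monocyte chemokine, had 188, 115 and 142 FPKM in overexpressing cells, against 146, 185 and 186 FPKM in control cells, with wide overlap (log2 fold change -0.24, SE 0.16, limma adjusted p = 0.596). BCL2L1, which encodes the survival protein BCL-xL, averaged 131 ± 10.8 FPKM in overexpressing cells and 137 ± 0.362 FPKM in control cells (SD, n = 3 each, limma adjusted p = 0.689).

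**Figure D3:**
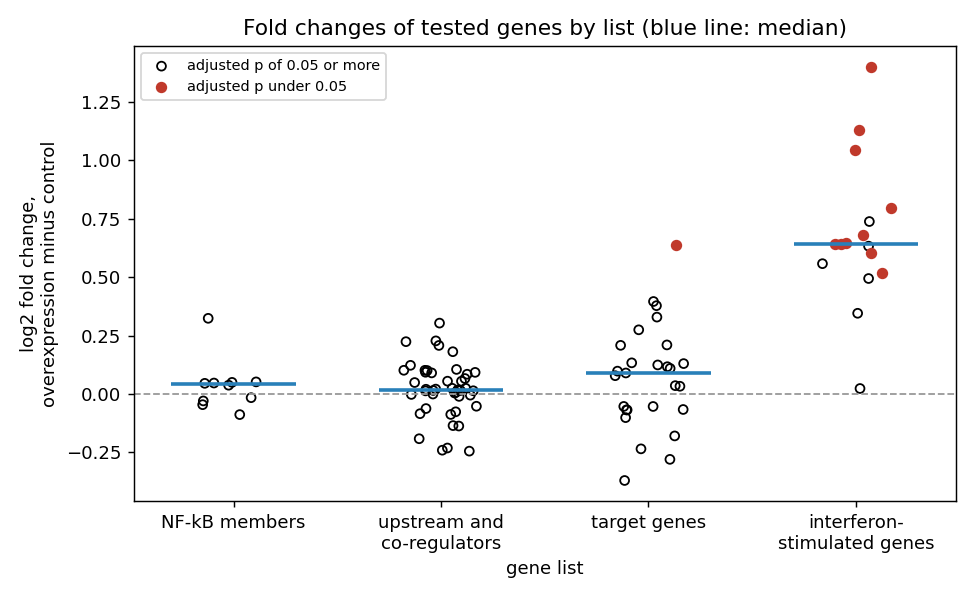
Log2 fold changes, overexpression minus control, of the tested genes of 4 lists, with 1 point per gene, filled red where the limma adjusted p is under 0.05, and a blue line at the median. The medians are 0.04 for the NF-kB members, 0.02 for upstream genes and co-regulators, 0.09 for target genes and 0.64 for interferon-stimulated genes.

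The interferon-stimulated genes were listed because they were known to differ between these libraries. Their values are set beside those of the members as description, and their count of calls is no independent result. Of 16 tested genes of that list 10 rose and 0 fell in limma, and their median log2 fold change was 0.64. The count was 0 without any 1 of control replicates 1, 2 and 3, 1 without overexpression replicate 1 and 5 without overexpression replicate 3. Their mean difference from the control mean, on the log2(FPKM + 1) scale, was 0.59, 0.48 and 0.97 in overexpression replicates 1 to 3 and lay between -0.09 and 0.07 in the control libraries. The same mean for the 10 NF-kB members was 0.07, 0.01 and 0.03 in overexpression replicates 1 to 3 and between -0.02 and 0.03 in the control libraries. TNFAIP3, with a log2 fold change of 0.32, weighs on this mean, and those of the other members lay between -0.09 and 0.05. The library highest for the interferon list was overexpression replicate 3, and the library highest for the NF-kB members was overexpression replicate 1. The difference between the lists was not tested.

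**Figure D4:**
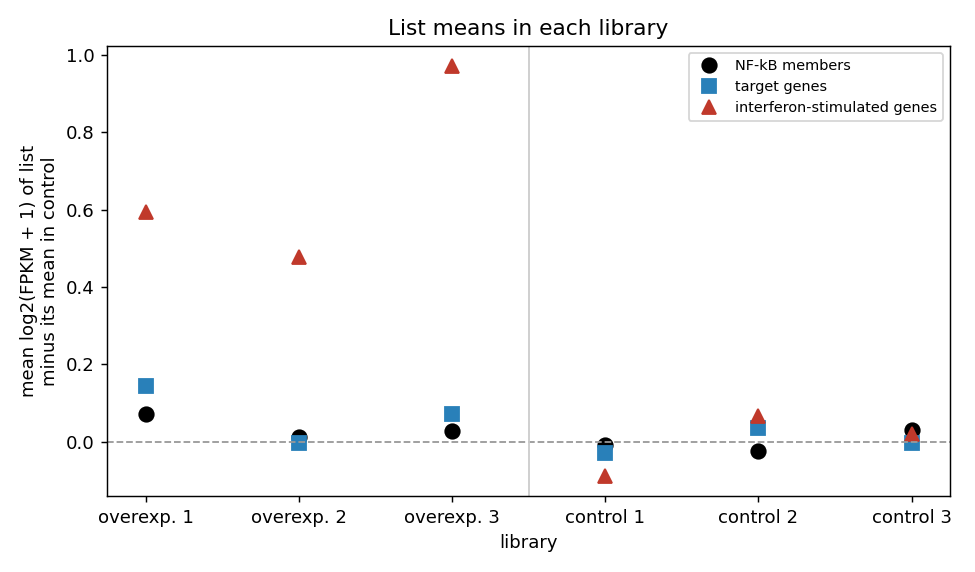
Mean log2(FPKM + 1) of the tested genes of each list minus the list's mean over the control libraries, with 1 point per list in each of the 6 libraries. Interferon-stimulated genes lie between 0.48 and 0.97 in the overexpression libraries, whereas the NF-kB members lie between 0.01 and 0.07 there and between -0.02 and 0.03 in control.

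The groups overlapped in estimated relative depth and stood apart in the summed FPKM of both marker lists. The estimated relative depth was 0.78, 0.84 and 0.92 in overexpression replicates 1 to 3 and 0.91, 1.00 and 0.77 in control replicates 1 to 3, with control replicate 2 set to 1. Of 10 markers of glioma lines, 7 averaged at least 1 FPKM, with VIM, CD44, NES, SOX2 and SOX9 among them, and the astrocyte and oligodendrocyte lineage markers S100B, AQP4 and OLIG2 averaged less. The glioma list summed to between 4792 and 5013 FPKM in overexpressing cells and between 5071 and 5454 FPKM in control cells. VIM and CD44 made up most of this sum, and the groups of each overlapped. Log2 fold changes were below 0 for 5 and above 0 for 2 of the 7 tested markers, with FABP7 the highest at 0.25. SOX2, a neural stem cell factor, had 102, 105 and 98.1 FPKM in overexpressing cells, against 117, 119 and 114 FPKM in control cells, all lower and not past the threshold (log2 fold change -0.19, limma adjusted p = 0.1202). GFAP averaged 21.6 ± 7.91 FPKM in overexpressing cells and 41.6 ± 6.06 FPKM in control cells (SD, n = 3 each, limma adjusted p = 0.107). Of 15 listed markers of other cells, 11 averaged under 1 FPKM and 0 were at 0 in all 6 libraries, and the list summed to between 22.5 and 24.3 FPKM in overexpressing cells and between 19.46 and 19.97 FPKM in control cells. CD68 averaged 10.1 ± 0.847 FPKM in overexpressing cells and 7.19 ± 0.4996 FPKM in control cells (SD, n = 3 each, limma adjusted p = 0.0831). PTPRC, the leukocyte antigen CD45, lay between 0.39 and 0.65 FPKM in overexpressing cells and between 0.13 and 0.17 FPKM in control cells. CDH5 went the other way, between 0.27 and 0.38 FPKM in overexpressing cells and between 0.46 and 0.68 FPKM in control cells. The groups of the other listed markers of other cells overlapped, with CD14, CSF1R, ITGAM and AIF1 among them. CD68 and SYT1 made up most of this list's sum, and the groups of SYT1 overlapped. The part of these differences in the values of TNFAIP3 and CXCL8 was not tested.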

How the data were processed

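Per the labels' protocols, U251 RNA was cleared of DNA by DNase and put into stranded libraries. Tools listed, without roles, per the submitters' processing notes are RSEM 1.3.1, Cufflinks 2.2.1, Bowtie, TopHat and edgeR, and the build listed is hg18. The authors deposited 1 table of gene-level FPKM values per library, rounded to 2 decimals, and the sources used here do not give the tool. Because the build differs from the references, no gene coordinates are printed, and promoter coordinates are those of RefSeq on GRCh38.p14.

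Symbols matched 19447 of 20330 identifiers. Groups came from the sample titles. The test covered 11731 genes present in every table whose 6 values averaged 1 FPKM or more, on log2(FPKM + 1) with limma 3.58.1 in R 4.3.3 (limma-trend, group as the only term, two-sided). Benjamini-Hochberg adjustment ran over all tested genes, with a threshold of 0.05. Alternatives changed the pseudocount, the filter, the scaling, the variance model, the sample weights, the replicate block or the libraries included. Summaries used pandas 2.3.3 under Python 3.11.15. The fit and the depth estimate were tested on simulated data.

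The depth in reads is unknown from FPKM alone, and relative depth was estimated from the steps between low values. No libraries were duplicates, with between 0.222% and 0.367% of values identical in a pair.

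Named genes are all 10 members, the genes of the upstream and target lists that passed, the 5 with the lowest adjusted p and the 3 with the highest mean in each, and the 3 genes most correlated with NFKBIA and with RELA. Members, lists and rule were chosen with earlier results of these data known. Other genes were named after their values were seen. A gene that the rule names is not reported here.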

Additional observations from a re-analysis of the deposited data

How the results depend on the processing

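The number of NF-kB members called was 0 in limma under each of 15 alternatives. The number of all genes called was 61, and moved to 1 with no filter on low values, 1 in limma without a trend, 197 with array quality weights, 19 with the replicate block and 1 to 60 with a library left out. The median log2 fold change of the members lay between -0.0034 and 0.0482 with a library left out. The number of target genes called, 1 as reported, was 0 with no filter, 0 without a trend, 2 with a filter of 5 FPKM (CXCL8 and IER3), 3 with array quality weights (CXCL8, IER3 and CSF1), 0 with the replicate block and 0 to 2 with a library left out. CXCL8 had limma adjusted p values from 0.0149 to 0.175 over its alternatives and passed in 7 of 15. The number of interferon-stimulated genes called, 10 as reported, was 0 with no filter, 0 without a trend, 6 with quantile normalization, 6 with the replicate block and 0 to 10 with a library left out, in alternatives added after seeing the data. Among upstream genes PDLIM2 alone was called, 1 gene, with array quality weights, and the cause of none of these moves was tested.

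Small member values changed sign. With array quality weights the log2 fold change was 0.0154 for NFKBIA, -0.0537 for NFKBIE and 0.0209 for IKBKB. With a library left out it ranged from -0.0697 to 0.0440 for NFKBIA, -0.0043 to 0.0684 for NFKBIB, -0.0249 to 0.149 for NFKBIE, -0.0984 to 0.0599 for IKBKB and -0.0276 to 0.0952 for CHUK. TNFAIP3 kept its sign, between 0.22 and 0.40, in 14 alternatives and was not tested under the filter of 5 FPKM.

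Same-numbered libraries did not deviate together (r = -0.04, -0.06 and 0.05 for replicates 1 to 3), so the block pairs only a shared number. Under it CXCL8 had a limma adjusted p of 0.0821. Rescaling to TPM moved the median of all tested genes to -0.01 and gave 30 higher and 31 lower calls, against 37 and 24 as deposited.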

Other observations

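Promoter words and fold changes were set side by side for the target list. The kB-like word occurred in the promoter windows of 10 of 37 target genes with a window (27.0%) and of 7 of 49 upstream genes and co-regulators (14.3%), against 2.33% of all genes. Among tested targets with a window, the 4 with a match (CXCL2, CXCL3, IL6 and IL32) had log2 fold changes with a median of 0.13, against 0.06 for the 18 without a match. IL6, the cytokine interleukin 6, had 1.95, 1.62 and 3.18 FPKM in overexpressing cells, against 1.55, 1.45 and 1.61 FPKM in control cells, where the nearest libraries had 1.62 and 1.61 FPKM, and it did not pass (limma adjusted p = 0.483). CXCL3 had a log2 fold change of -0.05, and the groups of CXCL2, CXCL3 and IL32 overlapped. These genes were named after their values were seen.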
